A study of Rattus norvegicus with 12 samples.

Results

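The effect of extra HDAC1 on rat kidney fibroblasts under the cytokine TGFB1 was measured by poly(A) RNA sequencing, in 6 of the 12 libraries of the series. The cells were NRK-49F, a fibroblast line from normal rat kidney. One group was transfected with a human HDAC1-Flag plasmid and given TGFB1 (3 libraries). The other was transfected with the empty vector pcDNA3.1 and given TGFB1 (3 libraries). Both groups received TGFB1 at 2 ng/ml for 24 hours in medium with 0.5% serum, so they differ by the plasmid at the same TGFB1 exposure. The members are all 14601 genes that passed a filter on low counts, and the 10338 of them with a mean of at least 5 CPM over the 6 libraries are described separately. CPM, the unit of level, is edgeR's scaled count of a gene relative to the library total of the tested genes. Values after ± are SDs over 3 libraries for levels and standard errors for log2 fold changes, which are always HDAC1 over empty vector. The other 6 libraries (HDAC1 with vehicle and empty vector with vehicle, 3 each) entered the fit and are used as a second measurement of HDAC1 with no library in common. Both measurements come from 1 fit with a shared estimate of the spread of each gene, so their calls are not independent. Groups follow the sample titles, since the treatment label of some samples is a numbered name and not a dose. The model is 1 cell line, and the share of cells that took up a plasmid is not given. Whether replicates were separate cultures is not stated, so p-values measure the spread between these libraries, which may be technical.

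HDAC1 is a class I deacetylase that strips acetyl groups from lysines of histones and other proteins. It works inside the NuRD, Sin3 and CoREST complexes, which are mostly known for gene repression. TGFB1 binds receptor kinases that activate SMAD2 and SMAD3, and in kidney fibroblasts it is known to drive the change to contractile, collagen-producing myofibroblasts. Interferon genes, AP-1 and NF-kB target genes and matrix genes are treated first because they held most of the named changes. Over all tested genes 2.17% were called higher and 4.36% lower, and the count of each list below is to be read beside these shares.

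Library totals were 18661922, 26570112 and 23217651 counts with HDAC1 and 22727235, 23619883 and 20844186 counts with the empty vector, and the tested genes held at least 99.9% of each. In a principal component analysis of the 6 libraries, the first component (48.6% of the variance) put the HDAC1 libraries at -30.3, -17.4 and -24.4 and the empty vector libraries at 23.4, 16.6 and 32.1. The second (15.9%) set empty vector replicate 3 (23.3) apart from empty vector replicates 1 and 2 (-12.6 and -15.0). Marker transcripts of heart muscle and neurons also differed between the groups. The 11 heart muscle markers summed to 118 to 134 CPM with HDAC1 and 358 to 450 CPM with the empty vector. The 9 neuron markers summed to 119 to 124 CPM with HDAC1 and 134 to 140 CPM with the empty vector. Their median log2 fold change was -1.44, but that of the 3 at 5 CPM and over was 0.02. Heart and neuron markers under 5 CPM summed to 12.1 ± 0.674 CPM with HDAC1 and 31.7 ± 3.95 CPM with the empty vector. All 11 heart markers were lower with HDAC1 (log2 fold changes from -2.04 to -1.19, median -1.56), 8 of them at 5 CPM and over, yet none was called. Of the neuron markers 4 were called lower. In the vehicle libraries 1 empty vector library was also low in these genes. The mean score of these 20 markers did not overlap between the compared groups (-0.76 to -0.65 with HDAC1, 0.55 to 0.73 with the empty vector, log2 scale, centred), and its part in each result below was not tested. With this score as a covariate, all 697 genes called at 5 CPM or more kept their direction. Their log2 fold changes had a median ratio of 1.02 to those without it, and their standard errors a median ratio of 1.37. Within the compared groups the score nearly follows the plasmid, so its slope came mostly from the vehicle libraries. Empty vector vehicle replicate 1 had a score of -1.70, and the other vehicle libraries had -0.03 to 0.53. Calls kept or lost with the score therefore cannot show whether a change is independent of these transcripts. The fibroblast markers summed to 11858 to 13963 CPM with HDAC1 and 13922 to 16893 CPM with the empty vector, overlapping at the edge. Of the 8 tested, 7 had negative log2 fold changes (median -0.40), and 2, Pdgfrb and Col1a2, were called lower. The markers of endothelial cells, leukocytes, kidney tubule and hepatocytes stayed under 7 CPM in sum in every library, and none of them was called.

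At an edgeR adjusted p under 0.05, 954 of 14601 genes (6.53%) were called, 317 higher and 637 lower with HDAC1. Of these, 27 rises and 198 falls were at least 2-fold. Over the alternatives that total of 225 ran from 23 with the heart and brain score to 405 without empty vector vehicle replicate 1. At 5 CPM and over, 697 of 10338 genes (6.74%) were called, 281 higher (2.72%) and 416 lower (4.02%), and 10 rises and 13 falls reached 2-fold. That total of 23 ran from 10 with the score to 52 in the fit to the 6 TGFB1 libraries. The median called rise at 5 CPM and over was 1.24-fold and the median called fall 1.32-fold, while the median log2 fold change of all genes at this level was 0.01. Under 5 CPM the picture was lopsided: 257 of 4263 genes (6.03%) were called, 36 higher (0.844%) and 221 lower (5.18%), and 185 of those falls were at least 2-fold. The share called was highest among the most abundant genes, where 71 rose and 60 fell of 1069 at 200 CPM or more. The 3 libraries of one group lay beyond all 3 of the other for 28.8% of all genes tested and for 29.5% of those at 5 CPM and over. With DESeq2 size factors in place of TMM the split at 5 CPM and over was 360 higher and 367 lower.

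**Figure D1:**
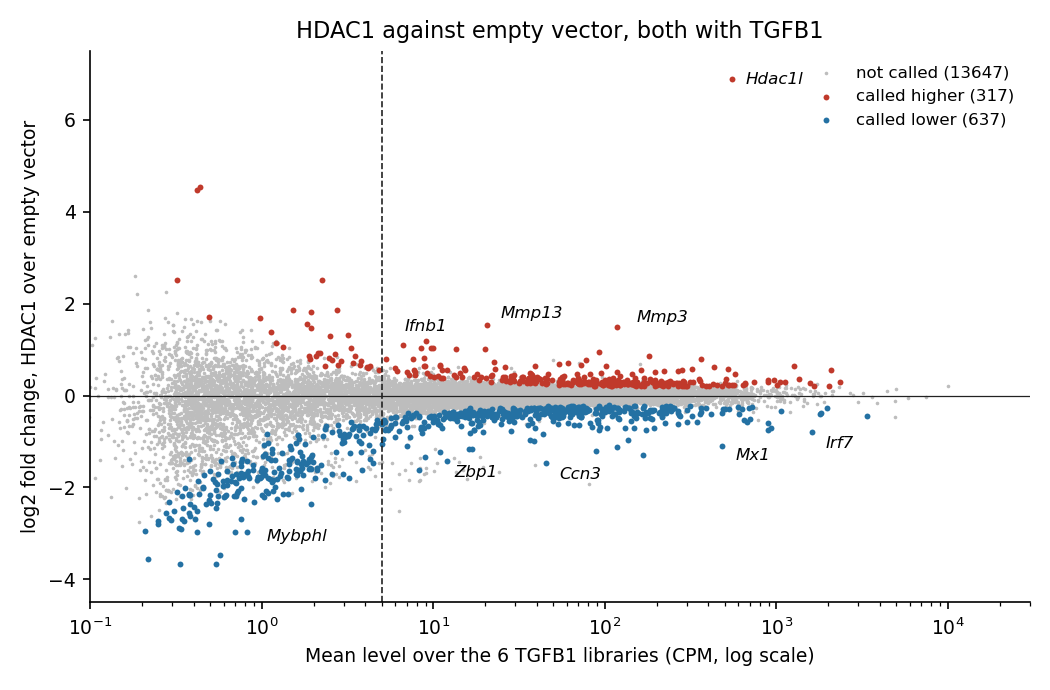
Each point is 1 of 14601 genes, with its mean level over the 6 TGFB1 libraries (CPM, log axis) and its log2 fold change, HDAC1 over empty vector, both with TGFB1. Red points were called higher (317), blue points lower (637) and grey points were not called. The dashed line marks 5 CPM, left of which blue points outnumber red ones by 221 to 36.

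**Figure D2:**
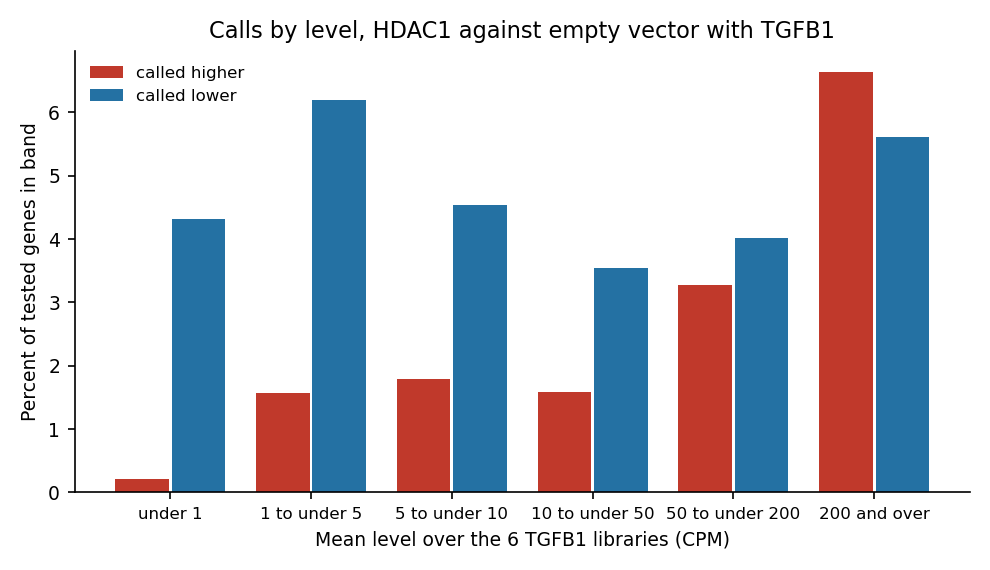
Bars give the percent of tested genes called higher (red) and lower (blue) with HDAC1 in 6 bands of mean CPM. Falls outnumber rises in every band except 200 CPM and over, where 6.64% were called higher and 5.61% lower.

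Many calls ended when 1 library was left out. Without HDAC1 replicate 1, 193 genes at 5 CPM and over were called, and without HDAC1 replicate 3, 239. Without empty vector replicate 1 or 3 the counts were 335 and 398, and without empty vector replicate 2 the count was 1010. A core of 166 genes (50 higher, 116 lower) was called in the fit of all libraries and in each of the 6 fits that left 1 out, and these are the genes given with full values below unless a sentence names the libraries that ended the call. Of that core, 108 (24 higher, 84 lower) were also called with the heart and brain score as a covariate. Each gene below whose call ended without a library also lost it with that score.

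The targeted gene was higher in every HDAC1 library. Hdac1 (ENSRNOG00000009568) had 501, 416 and 474 CPM with HDAC1 and 259, 250.2 and 290.4 CPM with the empty vector (log2 fold change 0.80 ± 0.08, edgeR adjusted p = 1.60e-05). The gene named as a rat copy of it, Hdac1l (ENSRNOG00000013695), had 1211, 802 and 1256 CPM with HDAC1 and 8.09, 8.65 and 11.2 CPM with the empty vector (log2 fold change 6.88 ± 0.65, edgeR adjusted p = 0.00122). No library of one group reached the range of the other for either gene. Their sum was 1712, 1218 and 1730 CPM with HDAC1 and 267, 259 and 302 CPM with the empty vector, 5.63-fold higher with HDAC1 (exact two-sided permutation p = 0.1, the smallest that 3 against 3 allows). Since the plasmid encodes human HDAC1 and the sharing of its reads between the rat genes is not known, neither value is a level of a rat transcript. HDAC1 replicate 2 had the lowest sum of the 3 HDAC1 libraries, and it was also the HDAC1 library closest to the empty vector on the first component. HDAC1 replicates 1 and 3 did not keep this order, with sums of 1712 and 1730 CPM at -30.3 and -24.4. A relation of the 2 values was not tested.

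Interferon genes held the most falls among the lists. Of 99 tested genes in 4 lists covering interferon signalling, nucleic acid sensors, antiviral effectors and class I antigen presentation, 42 fell and 2 rose, against 4.36% lower and 2.17% higher over all genes, with a median log2 fold change of -0.20 against -0.002 over all genes. Of these calls, 19 falls and both rises were kept in every fit that left out 1 library, and 15 of the falls were also called with the heart and brain score. The master factor Irf7, which drives type I interferon genes, had 1086, 1326 and 1143 CPM with HDAC1 and 1967, 1908 and 2259 CPM with the empty vector (log2 fold change -0.79 ± 0.09, edgeR adjusted p = 4.65e-05), with no overlap. Stat2, a transcription factor of the interferon receptor pathway, averaged 231 ± 15.7 CPM with HDAC1 and 300.1 ± 5.64 CPM with the empty vector (SD, n = 3 each; log2 fold change -0.38 ± 0.07, edgeR adjusted p = 0.00399), and its call ended with the heart and brain score (log2 fold change -0.36).

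The promoters of 3 interferon genes are shown because the genes fell together and each holds the core of the interferon-stimulated response element, the site of IRF and ISGF3 factors (searched on both strands as GAAA, any 2 bases, then GAAA again). They are RefSeq sequences of the rat assembly GRCr8 from 250 bases before to 50 after the annotated start, with the match in capitals. The match lies 69 bases before the start in Irf7 (chr1:205799974-205800273, minus strand), 92 bases before it in Isg20 (chr1:142239809-142240108, plus strand) and 131 and 125 bases before it, overlapping, in Bst2 (chr16:18254918-18255217, minus strand).
Irf7: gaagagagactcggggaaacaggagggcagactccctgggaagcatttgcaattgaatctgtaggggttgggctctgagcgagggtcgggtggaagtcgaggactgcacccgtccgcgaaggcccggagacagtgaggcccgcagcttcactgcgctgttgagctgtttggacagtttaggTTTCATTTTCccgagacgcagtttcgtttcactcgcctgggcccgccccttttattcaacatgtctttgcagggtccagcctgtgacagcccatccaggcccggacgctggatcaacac
Isg20: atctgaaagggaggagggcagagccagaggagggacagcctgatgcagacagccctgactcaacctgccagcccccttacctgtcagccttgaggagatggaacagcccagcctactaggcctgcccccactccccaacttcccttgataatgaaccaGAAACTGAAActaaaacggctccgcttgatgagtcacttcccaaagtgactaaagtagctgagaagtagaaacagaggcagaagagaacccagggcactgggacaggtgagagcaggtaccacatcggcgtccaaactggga
Bst2: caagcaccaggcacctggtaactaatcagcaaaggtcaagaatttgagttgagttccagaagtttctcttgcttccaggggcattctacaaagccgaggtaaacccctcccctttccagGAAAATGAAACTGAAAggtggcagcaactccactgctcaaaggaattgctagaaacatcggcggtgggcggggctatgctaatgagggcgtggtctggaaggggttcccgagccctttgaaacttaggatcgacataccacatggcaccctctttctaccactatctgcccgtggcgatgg
Of the interferon-list genes that fell and had a promoter in the table, 18 of 33 held the core. Of those not called, 19 of 42 held it. Over all 27457 symbols with a promoter the share was 4.119%, among tested genes at 5 CPM and over 3.289%, and among all genes called lower at that level 38 of 306. A match is only a run of letters and does not show that a factor binds there.

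Among the antiviral effectors 23 of 50 fell and 1 rose (median log2 fold change -0.25), with 12 of the falls and the rise kept in every fit that left out 1 library. Isg20, a ribonuclease active against viral RNA, had 94.9, 110.2 and 93.1 CPM with HDAC1 and 152, 149 and 189.7 CPM with the empty vector (log2 fold change -0.72 ± 0.10, edgeR adjusted p = 0.000405). Mx1, a GTPase that traps viral nucleocapsids, had 281, 368 and 279 CPM with HDAC1 and 658, 599 and 723 CPM with the empty vector (log2 fold change -1.09 ± 0.15, edgeR adjusted p = 0.00201), so its levels were separated by a gap wider than the range of either group. Bst2, the tether that holds budding virions to the cell, averaged 177 ± 20.7 CPM with HDAC1 and 270.1 ± 27.9 CPM with the empty vector (log2 fold change -0.61 ± 0.10, edgeR adjusted p = 0.0014). Oas2, an enzyme that makes the activator of RNase L, was 1.78-fold lower (log2 fold change -0.84 ± 0.11, edgeR adjusted p = 0.000486). Gbp4, a guanylate-binding protein, was 1.69-fold lower (log2 fold change -0.76 ± 0.10, edgeR adjusted p = 0.000217). Herc6 was 1.4004-fold lower (log2 fold change -0.49 ± 0.07, edgeR adjusted p = 0.000486). Gbp1 had a larger fold change of -1.16, but its call ended without HDAC1 replicate 1 or 3 or empty vector replicate 1 or 3 (log2 fold changes from -1.15 to -1.04), and also with no low-count filter (edgeR adjusted p = 0.0561). Ly6e and Ifi27l2a, 2 further interferon-induced genes outside the lists, were among the largest falls. Ly6e had 45.2, 64.1 and 50.6 CPM with HDAC1 and 120.1, 106 and 147 CPM with the empty vector (log2 fold change -1.21 ± 0.17, edgeR adjusted p = 0.00292). Ifi27l2a averaged 74.2 ± 9.32 CPM with HDAC1 and 161 ± 38.3 CPM with the empty vector (log2 fold change -1.11 ± 0.17, edgeR adjusted p = 0.00591). The Ifi27l2a call ended with the heart and brain score (log2 fold change -1.1). The Gbp, Oas, Mx and class I genes have near-identical copies, and the handling of shared reads is not given, so values of single members are uncertain.

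Sensors and antigen presentation genes fell in part. Zbp1, a sensor of Z-form nucleic acid that can start necroptosis, had 6.01, 7.86 and 5.696 CPM with HDAC1 and 17.6, 14.8 and 20.3 CPM with the empty vector (log2 fold change -1.41 ± 0.16, edgeR adjusted p = 9.99e-05), and all HDAC1 values lay under all empty vector values. It was 1 of 3 sensors that fell among 13. Of 17 genes of antigen processing and MHC class I, 12 fell, none rose, and all 17 had negative log2 fold changes (median -0.38), but only 4 of the 12 calls were kept in every fit that left out 1 library. Psmb10, a catalytic subunit of the immunoproteasome, averaged 131 ± 12.1 CPM with HDAC1 and 218 ± 42.1 CPM with the empty vector (log2 fold change -0.74 ± 0.12, edgeR adjusted p = 0.00276). The class I gene RT1-T24-4 is a symbol of 2 genes, and the one with the larger change (ENSRNOG00000032596) averaged 10.2 ± 1.94 CPM with HDAC1 and 23.2 ± 3.67 CPM with the empty vector (log2 fold change -1.17 ± 0.14, edgeR adjusted p = 0.000135). Tapbpl, which edits the peptides that class I molecules carry, fell by 1.31-fold (log2 fold change -0.38 ± 0.07, edgeR adjusted p = 0.00276). The falls of B2m, the light chain of class I (-0.41), and Psmb9 (-0.70) were called, but not in every fit. The B2m call ended without HDAC1 replicate 1 or 3 (log2 fold changes from -0.42 to -0.39). The Psmb9 call ended without HDAC1 replicate 1 (log2 fold change -0.65). Il18bp, the decoy of interleukin 18, also fell (log2 fold change -0.75 ± 0.12, edgeR adjusted p = 0.000917), as did Casp1, the inflammasome protease (log2 fold change -0.51 ± 0.09, edgeR adjusted p = 0.00216). Both were chosen after their values were seen.

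Both interferon-list genes that rose are themselves tied to the type I response. Ifnb1, interferon beta itself, had 14.1, 11.8 and 11.7 CPM with HDAC1 and 4.66, 5.65 and 6.25 CPM with the empty vector (log2 fold change 1.18 ± 0.13, edgeR adjusted p = 5.31e-05). Ifit3, an antiviral adaptor, had 244, 228 and 222 CPM with HDAC1 and 159, 175 and 149 CPM with the empty vector (log2 fold change 0.52 ± 0.07, edgeR adjusted p = 0.000135). The groups did not overlap for either gene, and both calls were kept in every alternative, so the ligand rose while 23 of 50 effectors fell. Cxcl10, an interferon-induced chemokine, had 389.7, 331 and 352 CPM with HDAC1 and 281, 325 and 299 CPM with the empty vector and was not called (log2 fold change 0.24 ± 0.08, edgeR adjusted p = 0.0586). It was called higher in 5 of the alternatives and not called in 9.

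**Figure D3:**
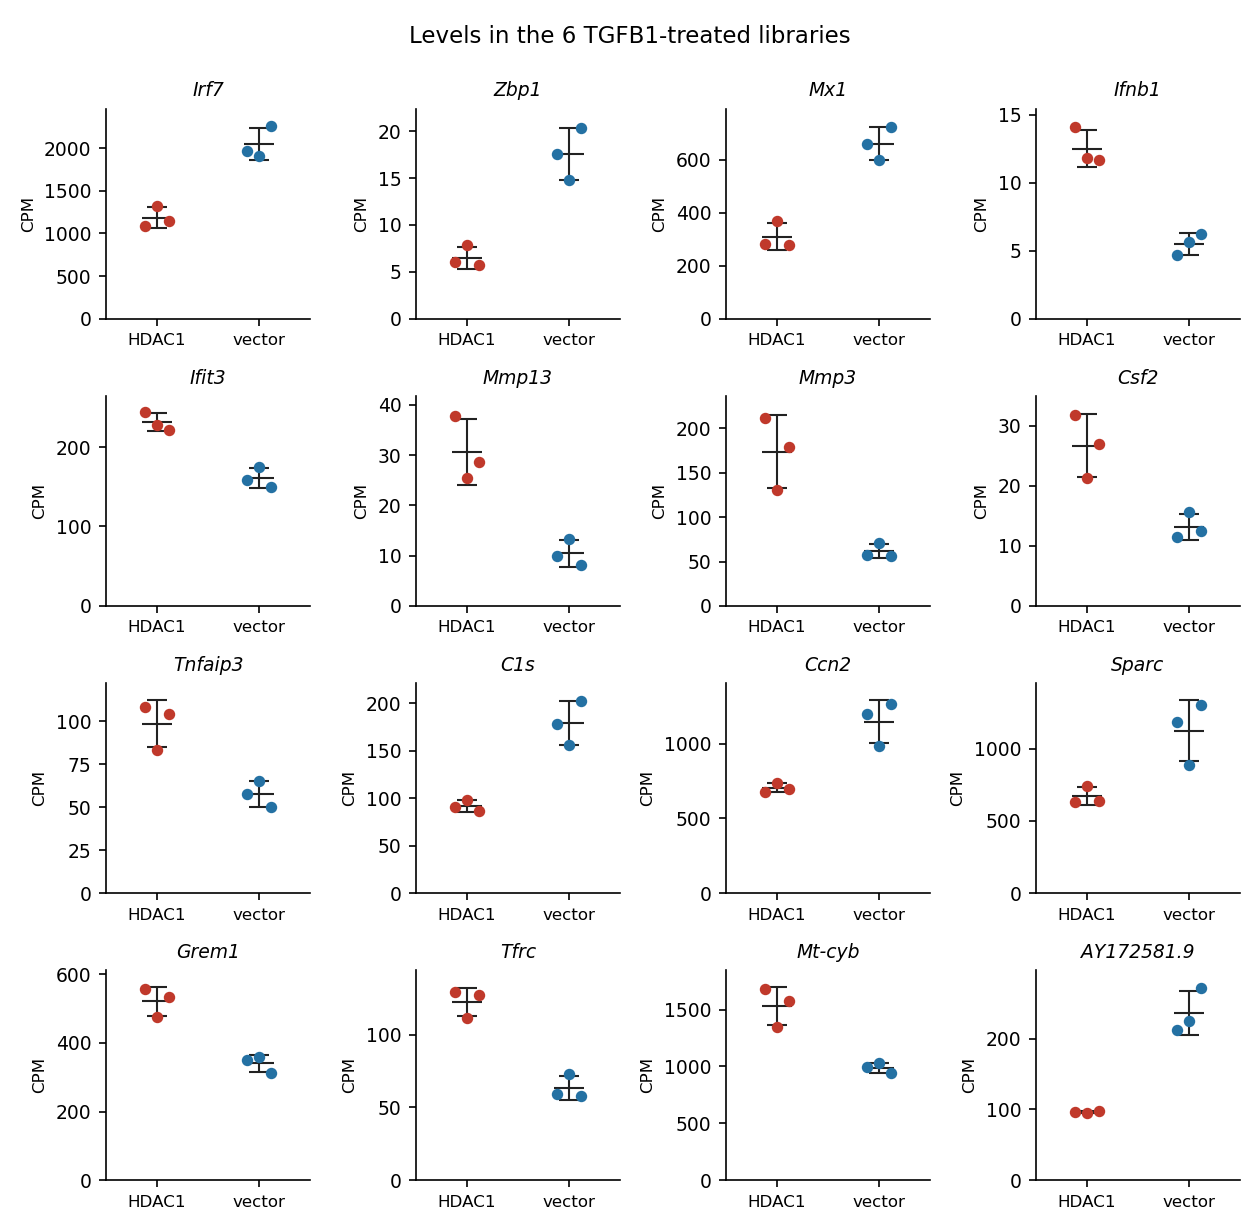
Levels (CPM, axes from 0) of 16 genes in the 3 HDAC1 libraries (red, left) and the 3 empty vector libraries (blue, right), all with TGFB1; bars are the mean and SD of 3. No gene shown has overlapping groups: Irf7, Zbp1, Mx1, C1s, Ccn2, Sparc and the ribosomal RNA AY172581.9 are lower with HDAC1 and the other 9 are higher.

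Several cytokine genes and matrix proteases known as AP-1 or NF-kB targets rose. Mmp13, a collagenase, had 37.9, 25.3 and 28.7 CPM with HDAC1 and 9.85, 13.3 and 8.14 CPM with the empty vector, 2.904-fold higher (log2 fold change 1.54 ± 0.15, edgeR adjusted p = 5.31e-05). Mmp3, stromelysin, which cuts many matrix proteins and activates collagenases, had 212, 131 and 179 CPM with HDAC1 and 57.2, 70.7 and 56.6 CPM with the empty vector, 2.82-fold higher (log2 fold change 1.5 ± 0.18, edgeR adjusted p = 0.00138). Apart from Hdac1l these were the largest called rises at 5 CPM and over, with no overlap, and HDAC1 replicate 1 was the highest library for both. Mmp10, stromelysin 2, lay under 5 CPM, at 5.79, 2.65 and 4.55 CPM with HDAC1 and 0.814, 1.84 and 0.843 CPM with the empty vector (log2 fold change 1.85 ± 0.37, edgeR adjusted p = 0.00831), and its call ended without empty vector replicate 1 or 3 (log2 fold changes from 1.64 to 1.67). Of 18 matrix metalloproteinases and their inhibitors 4 rose and 1 fell, with a median of -0.10, so the rise was not general to the family.

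Promoters of these 3 proteases are shown because each holds an AP-1 site (TGACTCA or TGAGTCA, both strands, in capitals). The site lies 66 bases before the start in Mmp13 (chr8:12782579-12782878, plus strand), 71 in Mmp3 (chr8:12925031-12925330, plus strand) and 61 in Mmp10 (chr8:12974457-12974756, plus strand), and the 3 genes lie close together on the same chromosome.
Mmp13: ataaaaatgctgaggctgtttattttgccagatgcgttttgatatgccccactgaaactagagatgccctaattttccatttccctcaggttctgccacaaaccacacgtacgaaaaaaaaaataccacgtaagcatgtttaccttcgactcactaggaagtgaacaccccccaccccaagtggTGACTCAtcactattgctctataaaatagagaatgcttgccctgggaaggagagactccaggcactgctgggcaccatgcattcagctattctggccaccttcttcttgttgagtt
Mmp3: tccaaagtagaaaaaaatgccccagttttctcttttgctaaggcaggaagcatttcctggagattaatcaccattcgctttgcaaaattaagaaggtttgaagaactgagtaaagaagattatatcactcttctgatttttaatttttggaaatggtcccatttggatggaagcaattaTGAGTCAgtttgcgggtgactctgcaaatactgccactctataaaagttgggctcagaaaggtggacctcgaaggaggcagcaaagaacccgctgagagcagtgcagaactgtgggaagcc
Mmp10: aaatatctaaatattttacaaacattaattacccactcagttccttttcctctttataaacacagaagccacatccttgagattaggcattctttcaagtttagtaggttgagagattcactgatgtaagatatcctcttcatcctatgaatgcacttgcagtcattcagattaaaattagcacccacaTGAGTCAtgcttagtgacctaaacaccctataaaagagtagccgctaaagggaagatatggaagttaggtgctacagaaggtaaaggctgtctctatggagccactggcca
An AP-1 site was found in 5 of the 11 inflammatory and metalloproteinase genes that rose and had a promoter, in 6 of 38 that were not called, in 20 of 214 of all genes called higher at 5 CPM and over, and in 5.041% of all symbols. The NF-kB site was found in 4 of those 11 and 16 of those 38, against 4.513% of all symbols. Of 26 AP-1, EGR and other immediate early genes themselves, 3 rose and 1 fell. Plk2, a kinase of the stress response, had 81.4, 65.5 and 78.9 CPM with HDAC1 and 45.97, 51.1 and 41.1 CPM with the empty vector (log2 fold change 0.70 ± 0.09, edgeR adjusted p = 0.000217). Atf3, a stress-induced repressor, averaged 27.5 ± 4.31 CPM with HDAC1 and 18.3 ± 2.29 CPM with the empty vector (log2 fold change 0.58 ± 0.12, edgeR adjusted p = 0.00591), and its call ended with the heart and brain score (log2 fold change 0.45). The rise of Jun (0.39) was called, but not without HDAC1 replicate 1 or 3 or empty vector replicate 1 or 3 (log2 fold changes from 0.34 to 0.40).

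Csf2, the cytokine GM-CSF, had 31.8, 21.4 and 26.98 CPM with HDAC1 and 11.5, 15.6 and 12.5 CPM with the empty vector (log2 fold change 1.01 ± 0.14, edgeR adjusted p = 0.000365). Tnfaip3, the enzyme A20 that shuts off NF-kB signalling, had 108, 83.1 and 104 CPM with HDAC1 and 57.4, 65.1 and 50.1 CPM with the empty vector (log2 fold change 0.77 ± 0.11, edgeR adjusted p = 0.000751). Neither gene had overlapping groups. Tnf averaged 6.75 ± 0.922 CPM with HDAC1 and 3.88 ± 0.562 CPM with the empty vector (log2 fold change 0.80 ± 0.14, edgeR adjusted p = 0.00236). Ccl4, a chemokine for monocytes and T cells, averaged 11.5 ± 1.22 CPM with HDAC1 and 5.56 ± 1.92 CPM with the empty vector (log2 fold change 1.03 ± 0.20, edgeR adjusted p = 0.00731). Cxcl2, a neutrophil chemokine, averaged 4.58 ± 1.34 CPM with HDAC1 and 1.79 ± 0.443 CPM with the empty vector (log2 fold change 1.32 ± 0.23, edgeR adjusted p = 0.00204). The calls of these 3 ended with the heart and brain score, with log2 fold changes of 0.76, 1.08 and 1.11. Of 16 chemokines 4 rose and 2 fell, and of 15 interleukins, colony-stimulating factors and TNF genes 3 rose. Of 21 NF-kB subunits and inhibitors 3 rose. Over all genes 2.17% were called higher and 4.36% lower. Cxcl16, a membrane-bound chemokine, fell (log2 fold change -0.31 ± 0.06, edgeR adjusted p = 0.00437), a call that ended with the heart and brain score (-0.33). The rises of Cxcl1 (0.65) and of Ptgs2, the inducible prostaglandin synthase (0.68), were called with edgeR, but not in every fit. The Cxcl1 call ended without HDAC1 replicate 1 or 3 or empty vector replicate 1, 2 or 3 (log2 fold changes from 0.46 to 0.67). The Ptgs2 call ended without HDAC1 replicate 1 or 3 or empty vector replicate 1, 2 or 3 (log2 fold changes from 0.54 to 0.69).

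Has2, the main hyaluronan synthase of fibroblasts, had 188, 151 and 162 CPM with HDAC1 and 127, 117 and 119 CPM with the empty vector (log2 fold change 0.46 ± 0.07, edgeR adjusted p = 0.00117), without overlap. Of 13 hyaluronan genes 4 rose and none fell (median 0.23), and only the call of Has2 was kept in every fit that left out 1 library. One of them was the receptor Cd44 (0.30), whose call ended without HDAC1 replicate 1 or 3 (log2 fold changes from 0.26 to 0.30).

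Of 43 matricellular proteins and glycoproteins 11 fell, none rose and 39 had negative log2 fold changes (median -0.18), and 4 of these calls were kept in every fit that left out 1 library. Ccn2, the matricellular protein CTGF and a standard marker of the TGFB1 response, had 680.2, 740.3 and 699 CPM with HDAC1 and 1199, 985 and 1266 CPM with the empty vector (log2 fold change -0.70 ± 0.11, edgeR adjusted p = 0.00123). Sparc, a collagen-binding glycoprotein, had 628, 741 and 641 CPM with HDAC1 and 1183, 889.9 and 1301 CPM with the empty vector (log2 fold change -0.75 ± 0.13, edgeR adjusted p = 0.00444). Neither gene had overlapping groups, and empty vector replicate 2 was the lowest of its group for both. Fbln5, which helps elastic fibres form, averaged 60.04 ± 3.37 CPM with HDAC1 and 81.6 ± 2.43 CPM with the empty vector (log2 fold change -0.44 ± 0.06, edgeR adjusted p = 0.000486). Tinagl1 averaged 11.8 ± 0.2597 CPM with HDAC1 and 20.8 ± 0.463 CPM with the empty vector (log2 fold change -0.81 ± 0.09, edgeR adjusted p = 5.31e-05). Ecm1, a matrix glycoprotein, averaged 66.9 ± 3.64 CPM with HDAC1 and 85.7 ± 4.36 CPM with the empty vector (log2 fold change -0.36 ± 0.07, edgeR adjusted p = 0.00399). Ccn3, a relative of Ccn2, had 19.1, 27.8 and 24.7 CPM with HDAC1 and 76.8, 47.6 and 75.7 CPM with the empty vector (log2 fold change -1.47 ± 0.24, edgeR adjusted p = 0.0115), but the call ended without HDAC1 replicate 1 or 3 (log2 fold changes from -1.49 to -1.34).

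Of 28 genes of collagen folding and crosslinking 8 fell and none rose (median -0.22), with 4 of the calls kept in every fit that left out 1 library. Loxl3, a lysyl oxidase, had 62.6, 77.4 and 75.6 CPM with HDAC1 and 114, 105 and 131 CPM with the empty vector (log2 fold change -0.69 ± 0.09, edgeR adjusted p = 0.000104). P3h3, a prolyl 3-hydroxylase, and Adamts2, which trims procollagen, fell with log2 fold changes of -0.49 and -0.49 (edgeR adjusted p = 0.00417 and 0.004), calls that ended with the heart and brain score. Of 9 fibrillar collagens 2 fell and 7 were not called, and neither call was kept in every such fit. Col1a1, the alpha chain that makes up most of type I collagen, had 3518, 4841 and 4058 CPM with HDAC1 and 6636, 5226 and 5341 CPM with the empty vector, without overlap, and missed the threshold (log2 fold change -0.47 ± 0.14, edgeR adjusted p = 0.0644). Col1a1 was called lower in 3 of the alternatives and not called in 11. Col1a2, its partner chain, averaged 2846 ± 371 CPM with HDAC1 and 3891 ± 525 CPM with the empty vector (log2 fold change -0.45 ± 0.12, edgeR adjusted p = 0.0295), and that call ended without HDAC1 replicate 1 or 3 or empty vector replicate 1 or 3 (log2 fold changes from -0.46 to -0.35). Col3a1 overlapped between the groups, at 644 ± 73.2 CPM with HDAC1 and 825 ± 190.4 CPM with the empty vector (log2 fold change -0.36 ± 0.20, edgeR adjusted p = 0.329).

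Fn1, fibronectin, had 6758, 7889 and 7391 CPM with HDAC1 and 8865, 7292 and 6247 CPM with the empty vector, overlapping (log2 fold change -0.02 ± 0.10, edgeR adjusted p = 0.917). None of 14 genes of plasminogen activation was called. Of 26 contractile genes 4 fell (median -0.21), none of them in every fit that left out 1 library. Acta2, smooth muscle actin and the usual myofibroblast marker, had 15.3, 16.9 and 15.9 CPM with HDAC1 and 21.5, 17.8 and 25.1 CPM with the empty vector (log2 fold change -0.41 ± 0.11, edgeR adjusted p = 0.0331). The groups did not overlap, but the Acta2 call ended without HDAC1 replicate 1, 2 or 3 or empty vector replicate 1 or 3 (log2 fold changes from -0.46 to -0.29). Des, the muscle intermediate filament, averaged 5.08 ± 0.195 CPM with HDAC1 and 12.8 ± 2.29 CPM with the empty vector (log2 fold change -1.33 ± 0.28, edgeR adjusted p = 0.0177), and the call ended without HDAC1 replicate 1, 2 or 3 or empty vector replicate 3 (log2 fold changes from -1.35 to -1.17) and with the heart and brain score (-0.53).

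Complement genes fell in part. Of 16 complement and acute phase genes 5 fell and none rose, and each of the 5 was called in every alternative. C1s, a protease of the first complement component, had 91.04, 98.5 and 86.4 CPM with HDAC1 and 178, 156 and 203 CPM with the empty vector (log2 fold change -0.96 ± 0.13, edgeR adjusted p = 0.00104). Its partner C1r had 517, 577 and 525 CPM with HDAC1 and 816, 757 and 851 CPM with the empty vector (log2 fold change -0.58 ± 0.08, edgeR adjusted p = 0.000323). Neither overlapped between the groups. Lbp, which binds bacterial lipopolysaccharide, averaged 6.63 ± 0.363 CPM with HDAC1 and 10.7 ± 1.03 CPM with the empty vector (log2 fold change -0.69 ± 0.13, edgeR adjusted p = 0.00395). C4b was near 1 CPM, at 0.331, 0.428 and 0.706 CPM with HDAC1 and 1.27, 1.46 and 1.94 CPM with the empty vector (log2 fold change -1.63 ± 0.31, edgeR adjusted p = 0.0039). Hsd11b1, the enzyme that regenerates active glucocorticoid, also fell, with 22.5, 26.9 and 24.5 CPM with HDAC1 and 43.2, 43.01 and 59.3 CPM with the empty vector (log2 fold change -0.97 ± 0.15, edgeR adjusted p = 0.00282).

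Genes of the TGF-beta family moved in both directions. Genes of 2 secreted proteins rose. Grem1, an antagonist that binds BMPs, had 557, 475 and 533 CPM with HDAC1 and 351, 358 and 312 CPM with the empty vector (log2 fold change 0.62 ± 0.07, edgeR adjusted p = 6.20e-05). Inhba, the subunit of activin A, had 276, 237 and 268 CPM with HDAC1 and 187, 195 and 157 CPM with the empty vector (log2 fold change 0.53 ± 0.08, edgeR adjusted p = 0.000733). No library crossed over for either gene. Bmp4, a BMP ligand, had 26.9, 32.8 and 29.2 CPM with HDAC1 and 51.6, 40.8 and 53.5 CPM with the empty vector (log2 fold change -0.71 ± 0.11, edgeR adjusted p = 0.00133). Smad6, the inhibitory SMAD of the BMP route, had 12.1, 14.1 and 13.2 CPM with HDAC1 and 20.6, 17.8 and 21.1 CPM with the empty vector (log2 fold change -0.59 ± 0.10, edgeR adjusted p = 0.00182). The ID genes are direct BMP targets, and Id1 (-0.37) and Id3 (-0.30) were called lower. The Id1 call ended without HDAC1 replicate 1, 2 or 3 or empty vector replicate 1 or 3 (log2 fold changes from -0.42 to -0.27). The Id3 call ended without HDAC1 replicate 1 or 3 or empty vector replicate 3 (log2 fold changes from -0.30 to -0.20). Nbl1, another BMP antagonist, fell (log2 fold change -0.32 ± 0.07, edgeR adjusted p = 0.00736), until the heart and brain score was added (-0.36). Over the list of 25 BMP, activin and ID genes 2 rose and 6 fell (median 0.03), with 4 of the 8 calls kept in every fit that left out 1 library. Of 16 TGF-beta ligands, receptors and latent binding proteins 2 fell, and of 19 SMAD and feedback genes 2 fell, against 4.36% of all genes. In lists this small, 2 calls do not show a change of the list. Tgfb1 itself had 142, 170.4 and 161 CPM with HDAC1 and 187, 179 and 188 CPM with the empty vector and missed the threshold (log2 fold change -0.23 ± 0.07, edgeR adjusted p = 0.056). It was called lower in 3 of the alternatives and not called in 11.

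WNT genes moved both ways: of 29, 4 rose and 5 fell, and 3 of the 9 calls were kept in every fit that left out 1 library. Wnt5a, a ligand of the non-canonical route, had 42.8, 40.98 and 43.6 CPM with HDAC1 and 30.3, 31.9 and 29.03 CPM with the empty vector (log2 fold change 0.48 ± 0.08, edgeR adjusted p = 0.00169), a call that ended with the heart and brain score (0.42). Fzd8, a receptor, had 10.6, 14.2 and 13.3 CPM with HDAC1 and 23.3, 18.8 and 23.02 CPM with the empty vector (log2 fold change -0.76 ± 0.12, edgeR adjusted p = 0.00109). The groups were separate for both. Sfrp4, a secreted WNT inhibitor, fell by 1.25-fold (log2 fold change -0.32 ± 0.06, edgeR adjusted p = 0.00627), but was not called with the score (-0.36). The fall of the receptor Fzd1 (-0.41) ended as a call without HDAC1 replicate 1 (log2 fold change -0.35). Among growth factors Pappa, a protease that frees IGF from its binding proteins, averaged 18.1 ± 1.26 CPM with HDAC1 and 8.88 ± 2.45 CPM with the empty vector (log2 fold change 1.02 ± 0.16, edgeR adjusted p = 0.000873). Kitlg, the ligand of KIT, averaged 193 ± 21.3 CPM with HDAC1 and 131 ± 19.4 CPM with the empty vector (log2 fold change 0.55 ± 0.11, edgeR adjusted p = 0.0076). Both calls ended with the score (0.91 and 0.54). Prrx2, a homeobox factor of mesenchymal cells, fell to 20.5, 30.5 and 26.6 CPM with HDAC1, against 52.9, 42.1 and 59.04 CPM with the empty vector (log2 fold change -0.98 ± 0.17, edgeR adjusted p = 0.00807).

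**Figure D4:**
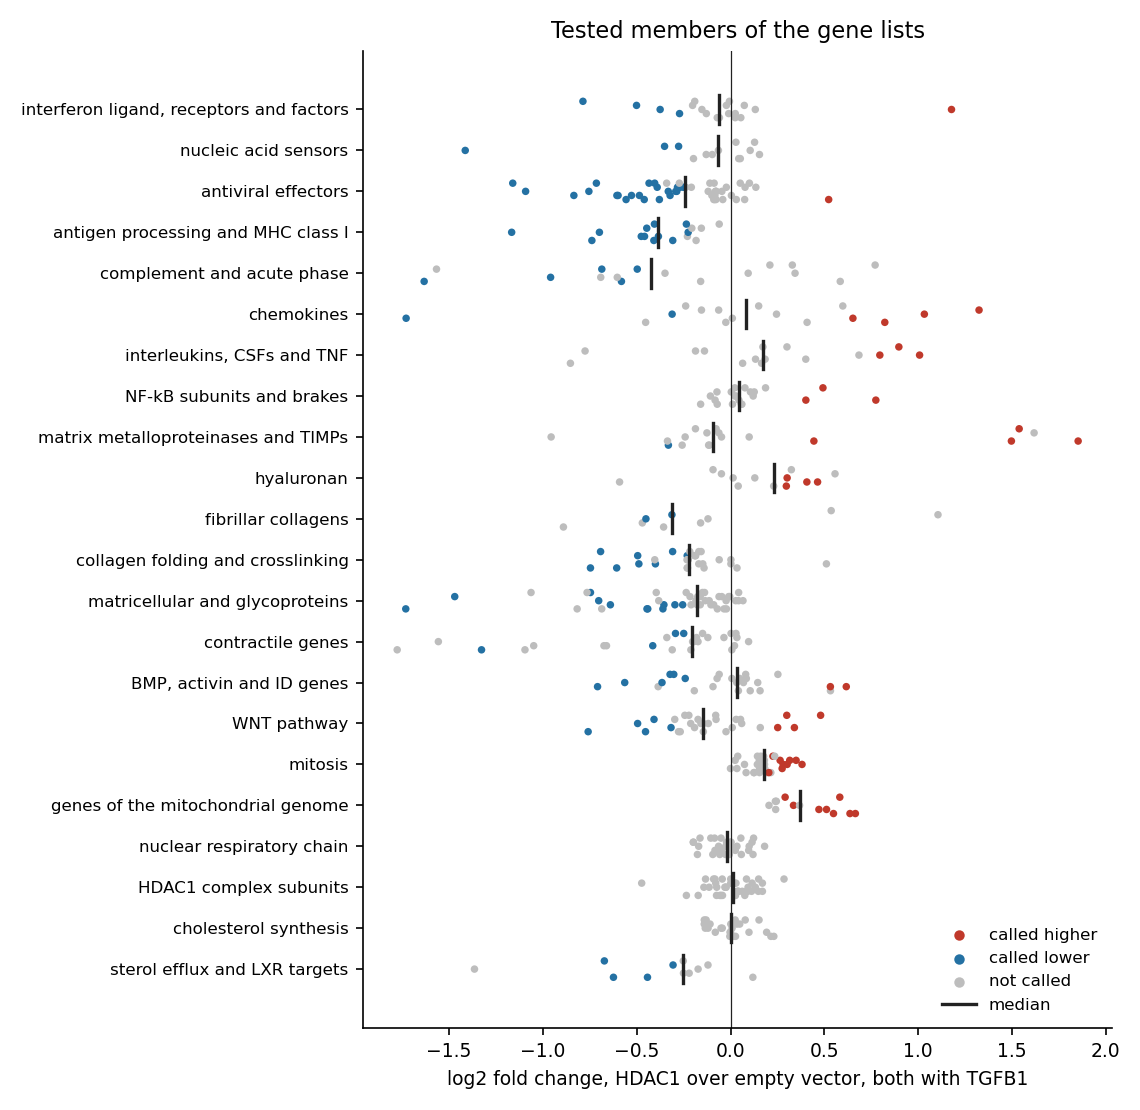
Each point is a tested member of a gene list, placed by its log2 fold change (HDAC1 over empty vector, both with TGFB1); red members were called higher, blue lower and grey not called, and the black bar is the list's median. Medians lie left of 0 for the antiviral effectors (-0.25), class I genes (-0.38) and complement (-0.42), right of 0 for the mitochondrial genome (0.37), and near 0 for HDAC1 complex subunits (0.01) and cholesterol synthesis (0.00).

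The messenger RNAs and the ribosomal RNAs of the mitochondrial genome moved in opposite directions. Of 13 messenger RNAs 8 rose, 5 of them in every fit that left out 1 library, and all 13 had positive log2 fold changes (median 0.37), whereas none of 34 nuclear respiratory chain genes was called (median -0.02). Mt-cyb, cytochrome b, had 1678, 1347 and 1574 CPM with HDAC1 and 991, 1028 and 939 CPM with the empty vector (log2 fold change 0.64 ± 0.08, edgeR adjusted p = 0.000179). Mt-nd4, a subunit of complex I, averaged 624 ± 63.2 CPM with HDAC1 and 416 ± 12.2 CPM with the empty vector (log2 fold change 0.58 ± 0.09, edgeR adjusted p = 0.000515). Mt-atp8, a subunit of ATP synthase, averaged 139 ± 8.21 CPM with HDAC1 and 97.6 ± 5.29 CPM with the empty vector (log2 fold change 0.51 ± 0.07, edgeR adjusted p = 0.000135). Together the 13 made up 2.40%, 2.09% and 2.28% of counts with HDAC1 and 1.81%, 1.86% and 1.84% with the empty vector (exact two-sided permutation p = 0.1). Both mitochondrial ribosomal RNA genes fell, and their sum was 260, 229 and 238 CPM with HDAC1 and 430, 456 and 538 CPM with the empty vector. One of them, AY172581.9, had the smallest adjusted p of all genes, with 96.5, 94.7 and 98.2 CPM with HDAC1 and 212, 225 and 271 CPM with the empty vector (log2 fold change -1.29 ± 0.09, edgeR adjusted p = 3.47e-08). These RNAs were read through a poly(A) selection, so the values are of what passed it.

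Tfrc, the transferrin receptor for iron uptake, was among the surest changes, with 129, 112 and 127 CPM with HDAC1 and 59.1, 72.7 and 57.95 CPM with the empty vector (log2 fold change 0.95 ± 0.09, edgeR adjusted p = 1.41e-05). Peg10, an imprinted gene derived from a retrotransposon, had 245, 217 and 239 CPM with HDAC1 and 129, 149.9 and 106 CPM with the empty vector (log2 fold change 0.86 ± 0.11, edgeR adjusted p = 0.000357). The groups lay apart for both. Further large rises at 5 CPM and over were Tmcc3 (13.05 ± 0.743 CPM with HDAC1, 6.302 ± 1.42 CPM with the empty vector; log2 fold change 1.04 ± 0.15, edgeR adjusted p = 0.000372) and the histone gene Hist1h2ail1 (0.82, edgeR adjusted p = 0.00138), neither called with the heart and brain score. Inpp4b, a phosphoinositide phosphatase (1.04), and Myh1, a muscle myosin (1.09), were called, but not in every fit. The Inpp4b call ended without HDAC1 replicate 1 or 3 or empty vector replicate 1 or 3 (log2 fold changes from 0.82 to 1.04). The Myh1 call ended without HDAC1 replicate 1 (log2 fold change 0.89). Chosen after their values were seen, 3 more genes were called in every fit that left out 1 library. Cyp1b1, a cytochrome P450, rose (log2 fold change 0.64 ± 0.11, edgeR adjusted p = 0.00294). So did Snai2, a repressor tied to mesenchymal change (log2 fold change 0.64 ± 0.13, edgeR adjusted p = 0.00567), and Lama3, a laminin chain (log2 fold change 0.52 ± 0.10, edgeR adjusted p = 0.00807). None of the 3 was called with the score.

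Of 33 mitosis genes 9 rose, none fell and 32 had positive log2 fold changes (median 0.18), and of 37 DNA replication genes 3 rose (median 0.10). None of these 12 calls was kept in all 6 fits that left out a library. In vehicle all 33 mitosis genes were called higher (median 0.54), as were 29 DNA replication genes (median 0.37). The difference between the effects was called for 10 of the mitosis and 3 of the DNA replication genes, against 0.479% of all genes. Mki67, a proliferation marker, averaged 568 ± 49.7 CPM with HDAC1 and 446 ± 62.02 CPM with the empty vector (log2 fold change 0.35 ± 0.09, edgeR adjusted p = 0.03), a call that ended without HDAC1 replicate 1 or 3 or empty vector replicate 1 or 3 (log2 fold changes from 0.24 to 0.39). For the spindle motor Kif11 (0.26) it ended without HDAC1 replicate 1 or 3 or empty vector replicate 3 (log2 fold changes from 0.21 to 0.28). Cdkn1a, the cell cycle inhibitor p21 and a gene known to be repressed by HDAC1, had 158, 168 and 177 CPM with HDAC1 and 169, 160.1 and 179 CPM with the empty vector, and these overlapped (log2 fold change -0.01 ± 0.07, edgeR adjusted p = 0.926).

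Of 18 deacetylases and sirtuins, only Hdac1 rose, and Hdac5 and Hdac11 were called lower. Hdac2, the close paralog that shares the complexes of HDAC1, averaged 143 ± 7.91 CPM with HDAC1 and 132 ± 5.24 CPM with the empty vector (log2 fold change 0.12 ± 0.06, edgeR adjusted p = 0.26). Hdac5 fell (-0.36), a call that ended without HDAC1 replicate 1 (log2 fold change -0.31). Hdac11 was at 0.166, 0.156 and 0.309 CPM with HDAC1 and 0.994, 1.28 and 0.695 CPM with the empty vector, a call that ended without HDAC1 replicate 1, 2 or 3 or empty vector replicate 1 or 2 (log2 fold changes from -2.6 to -1.96). With the heart and brain score its log2 fold change was -0.42. None of 42 subunits of HDAC1 complexes and none of 21 acetyltransferases and bromodomain proteins was called with edgeR.

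Of 11 genes of sterol efflux and LXR targets 4 fell, only Mylip in every fit that left out 1 library, and none rose (median -0.25), and none of 25 cholesterol synthesis genes was called (median 0.00). Mylip, which marks the LDL receptor for destruction, had 9.88, 11.7 and 11.9 CPM with HDAC1 and 18.2, 16.7 and 18.7 CPM with the empty vector (log2 fold change -0.67 ± 0.11, edgeR adjusted p = 0.00133), without overlap. The falls of Abca1, the cholesterol exporter (-0.62), and Srebf1, a factor for lipid synthesis (-0.44), were called, but not in every fit. The Abca1 call ended without HDAC1 replicate 2 or 3 or empty vector replicate 2 (log2 fold changes from -0.64 to -0.39), and also in the fit to the 6 TGFB1 libraries (edgeR adjusted p = 0.0566). The Srebf1 call ended without HDAC1 replicate 1 or 3 or empty vector replicate 1 (log2 fold changes from -0.42 to -0.39). Aqp1, a water channel, fell to 3.697, 6.42 and 4.99 CPM with HDAC1, against 10.98, 8.65 and 9.23 CPM with the empty vector (log2 fold change -0.91 ± 0.16, edgeR adjusted p = 0.00224).

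Below 5 CPM the 185 falls of at least 2-fold summed to 104 ± 6.30 CPM with HDAC1 and 324 ± 9.50 CPM with the empty vector (SD, n = 3 each). Of these genes 136 (73.5%) were also low in empty vector vehicle replicate 1, by more than 2-fold under the other empty vector vehicle libraries, against 14.03% of all tested genes under 5 CPM. At 5 CPM and over this was so for 2 of 416 falls (0.481%), against 0.387% of all tested genes at that level. A gene low in 1 vehicle library has a wide spread in the fit of all libraries, which makes it harder to call. The 8 heart markers at 5 CPM and over had a median log2 fold change of -1.61 and none was called. The share among called falls therefore does not limit the pattern to genes under 5 CPM. The cultures were of 1 fibroblast line, and bulk RNA does not show which cells the heart and brain transcripts came from or how much each cell held. Whether RNA of other tissues entered some libraries was not tested. Mybphl, a heart myosin-binding protein, had 0.166, 0.195 and 0.177 CPM with HDAC1 and 1.54, 1.11 and 1.74 CPM with the empty vector (log2 fold change -2.97 ± 0.35, edgeR adjusted p = 5.31e-05), and it was called in every alternative, with the heart and brain score too (log2 fold change -3.06). Among the largest falls between 1 and 5 CPM, the neuronal calcium sensor Hpca averaged 0.621 ± 0.201 CPM with HDAC1 and 3.23 ± 0.407 CPM with the empty vector (log2 fold change -2.35 ± 0.53, edgeR adjusted p = 0.0187). Srl, a muscle protein, averaged 0.419 ± 0.0288 CPM with HDAC1 and 2.03 ± 0.747 CPM with the empty vector (log2 fold change -2.25 ± 0.55, edgeR adjusted p = 0.0216). Ckmt1, a mitochondrial creatine kinase, averaged 0.3596 ± 0.0341 CPM with HDAC1 and 1.69 ± 0.342 CPM with the empty vector (log2 fold change -2.21 ± 0.42, edgeR adjusted p = 0.00399). With the heart and brain score the log2 fold changes of Hpca, Srl and Ckmt1 were -0.57, -0.80 and -0.96, and none of these 3 was called. Without the score the Hpca call ended without HDAC1 replicate 1, 2 or 3 or empty vector replicate 1 or 3 (log2 fold changes from -2.62 to -2.19). The Srl call ended without HDAC1 replicate 1, 2 or 3 or empty vector replicate 1 or 3 (log2 fold changes from -2.29 to -1.96).

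Some falls at 5 CPM and over behaved in the same way. Ankrd1, a muscle and YAP target gene (-1.06; -0.53 with the score), and the ferritin pseudogene Fth1-ps5 (-1.1; -0.70) lost their calls with the score. The Ankrd1 call ended without HDAC1 replicate 1 or 2 or empty vector replicate 3 (log2 fold changes from -0.97 to -0.80). The Fth1-ps5 call ended without HDAC1 replicate 1, 2 or 3 or empty vector replicate 1 or 3 (log2 fold changes from -1.15 to -1.0). Gpm6a, a neuronal membrane glycoprotein, was called in every alternative, with 5.74, 7.71 and 6.14 CPM with HDAC1 and 14.1, 16.9 and 15.2 CPM with the empty vector (log2 fold change -1.23 ± 0.18, edgeR adjusted p = 0.00134), and its log2 fold change with the score was -0.78. Just above the 5 CPM line was Vsnl1 (3.51 ± 0.659 CPM with HDAC1, 6.71 ± 0.621 CPM with the empty vector), and just below it were Opn3 (3.93 ± 0.0422 CPM with HDAC1, 5.97 ± 0.972 CPM with the empty vector) and Garin1b (3.74 ± 0.433 CPM with HDAC1, 5.69 ± 0.709 CPM with the empty vector). All 3 were called lower, Vsnl1 not with the score (log2 fold change -0.74). The Opn3 call ended without HDAC1 replicate 1 or 3 or empty vector replicate 2 (log2 fold changes from -0.61 to -0.48). The Garin1b call ended without HDAC1 replicate 1 or 2 or empty vector replicate 1 or 2 (log2 fold changes from -0.61 to -0.50).

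The vehicle libraries gave the same direction for most of these genes. Of the 281 genes that rose with TGFB1 at 5 CPM and over, 261 were also higher in vehicle by sign and 140 were called higher there, out of 856 genes called higher in vehicle (8.28% of those tested). Of the 416 that fell, 397 were lower by sign and 266 were called lower, out of 967 called lower in vehicle (9.35%). One called rise and 3 called falls were called the other way in vehicle. Values in vehicle were -0.70 for Irf7, 1.05 for Ifnb1, 1.12 for Csf2, -1.11 for C1s and -0.61 for Ccn2 on the log2 scale, all called with edgeR. The difference between the 2 effects was called for 15 of the 697 genes, against 0.542% of all genes at this level. The 697 genes were chosen by the effect with TGFB1, which is part of this difference, so the 2 shares are not comparable. Grem1 and Inhba were among the 15: their log2 fold changes were 0.62 and 0.53 with TGFB1 and 0.02 and -0.05 in vehicle (edgeR adjusted p of the difference = 0.0195 and 0.029). Leaving out empty vector vehicle replicate 1, the library low in heart and brain transcripts, ended no call of a gene named here. For Mmp13 and Mmp3 the log2 fold changes in vehicle were 0.56 and 0.71, and the differences did not pass the test (edgeR adjusted p = 0.0554 and 0.191).

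**Figure D5:**
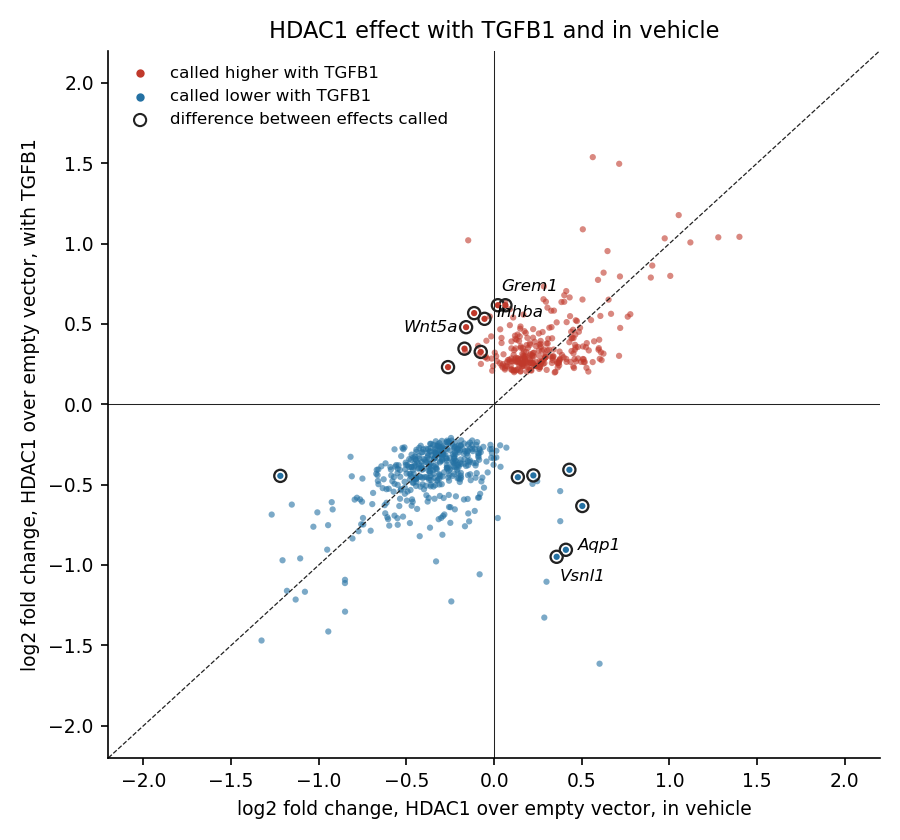
Log2 fold change of HDAC1 over empty vector with TGFB1 (vertical) against the same in vehicle (horizontal) for the called genes at 5 CPM and over, without Hdac1l. Red genes were called higher and blue lower with TGFB1; rings mark the 15 genes whose 2 effects differed, among them Grem1, Inhba, Wnt5a, Aqp1 and Vsnl1, and the dashed line marks equal effects.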

How the data were processed

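RNA was poly(A)-selected and sequenced in 12 libraries, and the 6 with TGFB1 were compared. The submitters' processing notes list Trim Galore 0.6.7, featureCounts (Subread 2.0.1) and DESeq2 1.44. The notes name the mouse build mm10, while the deposited identifiers are rat Ensembl genes. The aligner, strand setting and handling of shared reads are not given in the sources used here. The authors deposited raw counts per gene and a table of normalized signal, in which each column is the count divided by 1 constant per library for the 14275 genes with at least 100 counts in total. Symbols came from that table only, so 1909 tested genes had none and 155 shared one.

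The raw counts were tested with the quasi-likelihood test of edgeR 4.0.16 (R 4.3.3, limma 3.58.1), with filterByExpr (14601 of 43360 genes kept, 13039 with 0 counts), TMM scaling, robust dispersion (common biological coefficient of variation 7.61%) and 1 mean per group over all 12 libraries, which left 8 residual degrees of freedom. P-values were two-sided and adjusted by Benjamini-Hochberg over all tested genes, with calls under 0.05. The SE of a fold change is its size over the square root of F. Alternatives were DESeq2 1.42.0 and its size factors, other filters, a fit to 6 libraries, a covariate, a replicate block and leaving out libraries.

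The cells, gene lists and rule for named genes (targeted and fibrosis genes, the 15 largest rises and falls at 5 CPM and over, the 10 smallest adjusted p-values, the 5 largest each way between 1 and 5 CPM, up to 4 called and 2 uncalled per list, and up to 3 on each side of 5 CPM) were chosen with earlier results of these data known, and genes of the rule that repeat a group are given as counts. A few genes of the rule are not reported here. Same-numbered replicates had correlations of -0.04, -0.08 and -0.07 and are not pairs. On simulated data with 200 changed genes among 14601, 62.5%, 73.5% and 92% of changes by 1.5-fold, 2-fold and 4-fold were recovered (86.0%, 99.2% and 100% at 5 CPM and over). The simulation held no library that was low in a set of genes. No 2 libraries of a group were within sampling noise of each other.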

Additional observations from a re-analysis of the deposited data

Results flagged for a closer look

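For 10 genes named in the analysis the HDAC1 effect with TGFB1 differed from that in vehicle by the test of the difference itself, given as the log2 fold change with TGFB1 minus that in vehicle. Of 14601 genes 70 (0.479%) passed this test. Of the 10, 6 were more positive with TGFB1. They were Cxcl10 (0.56, edgeR adjusted p = 0.0262; 0.24 with TGFB1 and -0.32 in vehicle), Inhba (0.59), Grem1 (0.59), Wnt5a (0.64, edgeR adjusted p = 0.0219; 0.48 with TGFB1 and -0.16 in vehicle), the potassium channel Kcnj2 (1.04, edgeR adjusted p = 0.0385) and Aspn. The Kcnj2 rise with TGFB1 (0.75) lost its call without HDAC1 replicate 1 or 3 or empty vector replicate 3 (log2 fold changes from 0.63 to 0.75). Aspn, a small matrix proteoglycan, had a difference of 1.0 (edgeR adjusted p = 0.018). It fell by 1.09 on the log2 scale in vehicle and was at -0.09 with TGFB1.

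Aqp1 had a difference of -1.31 (edgeR adjusted p = 0.00971), falling with TGFB1 (-0.91) and rising in vehicle (0.41). Vsnl1 (-1.31, edgeR adjusted p = 0.0167), Ckmt1 (-3.03, edgeR adjusted p = 0.0262) and Mybphl (-1.8, edgeR adjusted p = 0.046) also had more negative effects with TGFB1 than in vehicle. Heart and brain transcripts were lower in the HDAC1 libraries with TGFB1 and in empty vector vehicle replicate 1, and their part in these differences was not tested.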

How the results depend on the processing

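Counts of calls moved most when a library was left out or the heart and brain score was added. With the score 135 genes were called (27 higher, 108 lower), 120 of them at 5 CPM and over (24 higher, 96 lower), with 23 changes of 2-fold and 10 at 5 CPM and over. Without 1 library of the compared groups, the counts ran from 237 to 1236 in all (67 to 591 higher, 170 to 645 lower), from 193 to 1010 at 5 CPM and over (56 to 526 higher, 137 to 484 lower), and from 45 to 204 changes of 2-fold (12 to 30 at 5 CPM and over). The DESeq2 test called 610 genes higher, 572 of them at 5 CPM and over. The fit to the 6 libraries gave 386 changes of 2-fold (52 at 5 CPM and over). Without empty vector vehicle replicate 1 there were 424 rises at 5 CPM and over and 405 changes of 2-fold (51 at 5 CPM and over). A mean of 1 CPM as filter left 123 changes of 2-fold, and no filter gave 485 rises, 428 at 5 CPM and over, and 353 changes of 2-fold. The replicate block called 784 genes (231 higher, 553 lower) and ended no call of a named gene; the numbers do not pair the samples. Of the named genes, 2 that were not called changed sign: Fn1 (-0.14 to 0.11 without 1 library) and Cdkn1a (-0.055 to 0.026 without 1 library, 0.0023 with the DESeq2 test and 0.0074 without empty vector vehicle replicate 1). The cause of these shifts was not tested. Fewer samples or genes entered some fits, but the counts did not always fall then. Without empty vector vehicle replicate 1, 1251 genes were called, against 954 in the fit of all libraries. Each group has 3 libraries, which limits the precision of every value. In the simulated data at 5 CPM and over, changes of 1.5-fold were recovered less often than larger ones. Larger changes were missed in the real data too. None of the 8 heart markers at 5 CPM and over was called, at a median log2 fold change of -1.61.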
